A study of Mus musculus with 8 samples.

Results

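Carbonic anhydrase 2 (Car2) and 9 further genes linked to red cell formation were followed in RNA of mouse haematopoietic stem cells. The 10 genes were chosen by symbol, namely Car1, Car2, Klf1, Aqp1, Blvrb, Slc25a37, Tfrc, Ermap, Rhd and Ank1, out of 53715 genes counted, and all 10 were found once each. The cells were sorted from bone marrow by the absence of lineage markers and CD48 and the presence of Sca-1, Kit and CD150. The 8 libraries comprised 4 of wild-type mice and 4 of mice with the label Gata2 heterozygote and the Mx1-Cre transgene, and each genotype was represented by 4 mice. All mice were 8 to 12 weeks old and had received 6 doses of pIpC, a mimic of double-stranded RNA that raises interferon and so switches on the Mx1 promoter of the Cre transgene. Mx1-Cre acts in many cell types that respond to interferon, and the labels name it for the heterozygotes only. If the wild-type mice lacked it, the transgene and the Gata2 allele cannot be told apart.

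Red cells are made from stem cells through progenitors that gradually gain the gene programme of the erythroid lineage. GATA factors bind the letters GATA in regulatory DNA, with Gata2 prevalent in stem and early progenitor cells and Gata1 replacing it as erythroid cells mature, and Klf1 then acts on CACCC letters in the promoters of red cell genes. Carbonic anhydrases convert carbon dioxide and water to bicarbonate and a proton, the reaction that lets red cells carry carbon dioxide. Transcripts of such genes can be found in stem cells at low level before any commitment, which is called priming. The comparison addressed how these transcripts stood in stem cells labelled as having 1 functional Gata2 allele.

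Fragments assigned to genes numbered 16750778 to 22861884 per library. Gata2 itself was measured at 30.1, 45.3, 29.1 and 38.5 CPM (fragments over all exons of a gene, scaled to a common library size and composition by TMM) in the wild-type libraries (replicates 1 to 4, the order used throughout), and at 35.5, 61.9, 36.7 and 45.1 CPM under the heterozygote label. The 2 ranges overlapped, and the change was 0.33 on the log2 scale (SE 0.23, adjusted p = 0.858 in edgeR's quasi-likelihood test). Gata2 was thus not measured lower in the libraries labelled heterozygote, whose counts sum over all exons of the gene and can include transcripts of a recombined allele, so every direction given here rests on the labels. Each genotype included 2 libraries with Xist and no counts of 4 Y-linked genes (replicates 1 and 4) and 2 with Y-linked counts and no Xist (replicates 2 and 3). The deviations of each library from the mean followed gene GC content with r across genes of 0.04 to 0.23 in wild-type replicates 1, 2 and 4, -0.16 in wild-type replicate 3, and -0.10 to -0.03 in the heterozygote-labelled libraries, so this trend moved with the genotype label apart from wild-type replicate 3. Stem cell markers summed to 1019 to 1563 CPM in wild-type and 1150 to 1331 CPM in heterozygote-labelled libraries, with 12 of 12 detected. Markers of mature red cells were low apart from Hemgn, a nuclear protein also found in stem cells, and Slc4a1, the anion exchanger of the red cell membrane, was at 0 in all 8 libraries.

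Across all 13992 genes tested, edgeR called 0 (0%) at an adjusted p under 0.05, and the smallest adjusted p was 0.834. DESeq2 called 29 of the same genes (0.207%), 15 higher and 14 lower, and none of the 10 genes of interest was among them. Of the 10, 9 passed the filter on low counts and Ank1 did not. In the 9, the log2 fold change of the heterozygote label over wild type was negative in 7, namely Car2, Klf1, Aqp1, Blvrb, Tfrc, Ermap and Rhd, and positive in Car1 and Slc25a37, while 52.0% of all genes tested were negative. The median was -0.44, beside -0.02 over all genes tested, and with the GC and length trend of each library removed these were -0.28 and 0.04. At an unadjusted p under 0.05, edgeR had 2 of the 9 lower (Car2 and Aqp1), against 3.29% of all genes, and 1 higher (Slc25a37), against 2.37%. Only Car2 had groups that did not overlap, with every heterozygote-labelled library below every wild-type library, as held for 1.82% of all genes. The samples are bulk RNA, so fewer cells of a type and less RNA per cell cannot be told apart.

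**Figure D1:**
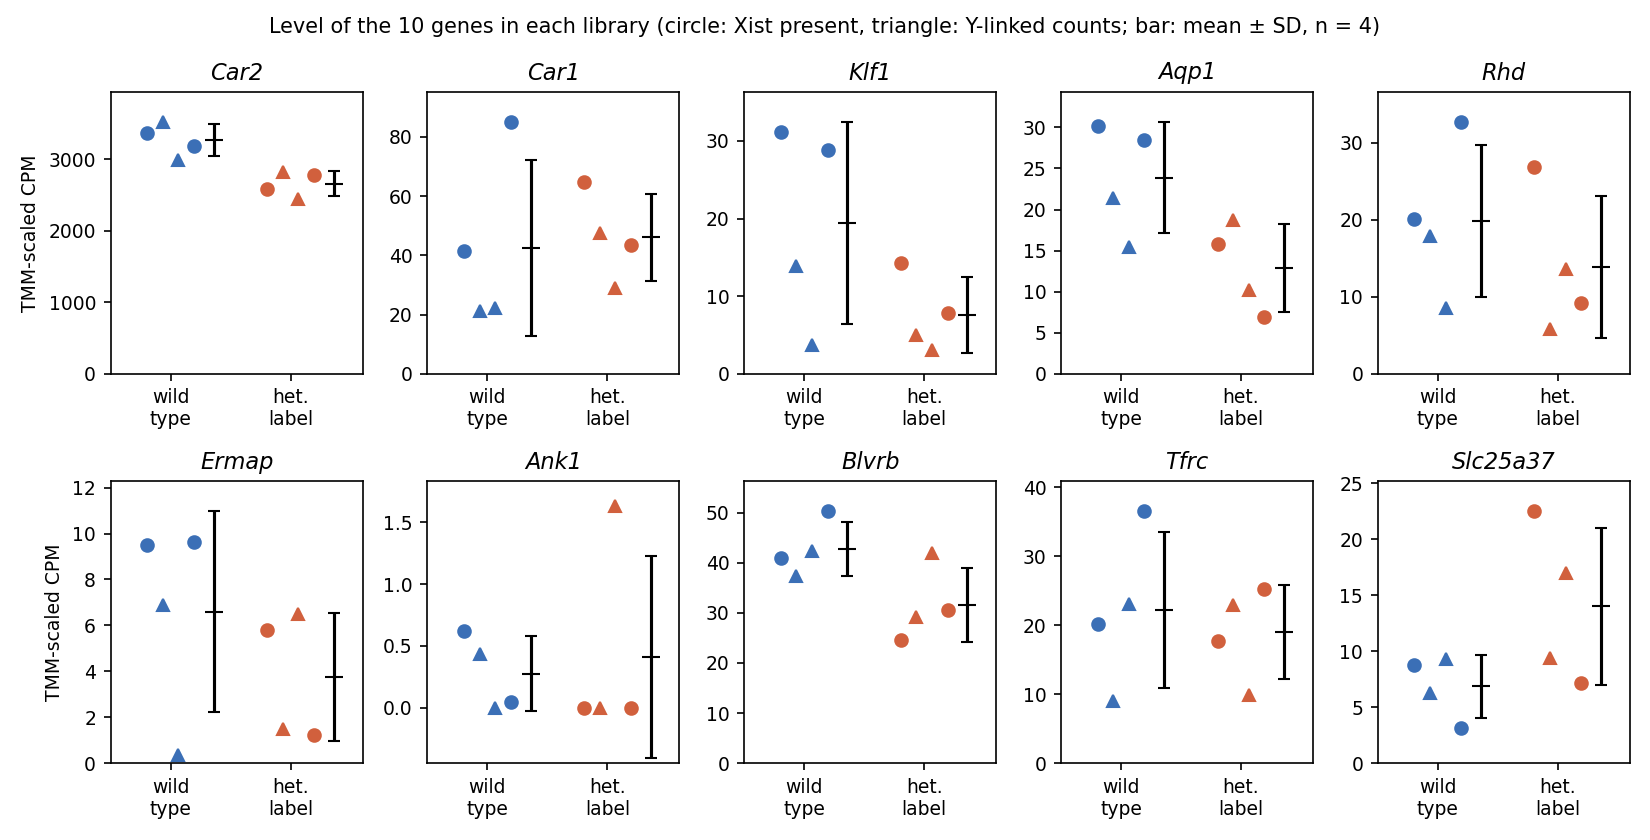
Points give the TMM-scaled CPM (vertical axis, linear) of each of the 10 genes in each library, wild type in blue and heterozygote label in orange, with replicates 1 to 4 from left to right and the black bar giving mean and SD of 4 libraries. Circles are libraries with Xist and triangles libraries with Y-linked counts. Car2 is the 1 gene of the 10 in which the groups do not overlap, all 4 wild-type points lying at or above 2990 CPM and all 4 heterozygote-labelled points at or below 2817 CPM.

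Car2, the fast cytosolic carbonic anhydrase, dominated the set. It was measured at 3367, 3516, 2990 and 3189 CPM in the wild-type libraries and at 2581, 2817, 2448 and 2785 CPM under the heterozygote label. The lowest wild-type library was replicate 3, and it still lay above the highest heterozygote-labelled library, replicate 2. The means were 3266 ± 227 and 2658 ± 175 CPM (SD, n = 4 each), a fold of 0.814 with a 95% interval of 0.709 to 0.934. This is -0.30 on the log2 scale (SE 0.09), with an adjusted p of 0.850 in edgeR's quasi-likelihood test. The exact two-sided permutation test over the 70 assignments of libraries gave p = 0.0286, which is the smallest that 4 against 4 can give. This p follows from the groups not overlapping, as held in this direction for 1.82% of all genes tested. It adds nothing to that, and Car2 did not pass once all genes were considered.

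The abundance of Car2 makes its counts precise. It took 0.335% ± 0.0427 of all counted fragments in wild-type libraries and 0.260% ± 0.0179 in heterozygote-labelled libraries (SD, n = 4), and only 8 to 33 genes per library had a higher CPM. By mean TPM (a level corrected for gene length and scaled to the same sum in each library) it ranked 26 among all genes counted, at 3590 ± 554 TPM in wild-type and 2765 ± 194 TPM in heterozygote-labelled libraries (SD, n = 4). Car2 was thus not at the low level named above for priming. Its biological coefficient of variation, the spread between replicates beyond counting error, was lower than in all but 0.300% of the genes tested. Osteoclasts also depend on Car2 to acidify bone. The osteoclast markers summed to 2.77 to 9.64 CPM in wild-type and 2.40 to 10.9 CPM in heterozygote-labelled libraries, and Calcr, Ocstamp and Atp6v0d2 were at 0 in all 8. Median Car2 was 2987 CPM in the 4 libraries with Xist and 2904 CPM in the other 4.

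Car1, a slower cytosolic carbonic anhydrase that is abundant in mature red cells, did not share the pattern of Car2. Wild-type libraries held 41.4, 21.3, 22.1 and 84.9 CPM and heterozygote-labelled libraries 64.7, 47.4, 28.9 and 43.5 CPM. Wild-type replicate 4 was the highest of all 8 and wild-type replicate 2 the lowest, so the heterozygote-labelled range lay inside the wild-type range. Car1 had a log2 fold change of 0.12 (SE 0.44, adjusted p = 0.971 in edgeR), and its sign depended on single libraries, since it was 0.71 without wild-type replicate 4 and -0.09 without wild-type replicate 3. On the per-length scale Car2 exceeded Car1 in every library, by 19.4-fold to 85.0-fold.

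The 2 genes lie close together on chromosome 3 of GRCm38. Car13, Car1, Car3 and Car2 follow each other there within 259 kb, Car1 on the minus strand at 14766216 to 14808368 and Car2 on the plus strand at 14886273 to 14900770. Car13, another cytosolic isozyme, was at 11.4 ± 4.24 CPM in wild-type and 5.86 ± 1.02 CPM in heterozygote-labelled libraries (SD, n = 4). Its log2 fold change was -0.96 (SE 0.35, adjusted p = 0.850 in edgeR). The groups did not overlap, the heterozygote label being lower, as held for 1.82% of all genes tested. Car3, an isozyme best known from muscle and fat, was at 15.9 ± 5.20 and 15.4 ± 4.09 CPM, a log2 fold change of -0.04 (SE 0.31). None of the 4 neighbours passed the threshold, and no test compared them with each other.

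The rest of the carbonic anhydrase family was low or undetected. Among the 14 family genes other than Car1 and Car2, 4 passed the filter, of which 3 were lower and 1 higher with a median log2 fold change of -0.19 that was -0.55 without heterozygote replicate 1, -0.36 without heterozygote replicate 2, -0.12 without heterozygote replicate 4 and -0.06 without wild-type replicate 4. Car9, a membrane isozyme induced by low oxygen, was at 19.2 ± 4.07 TPM in wild-type and 14.3 ± 3.26 TPM in heterozygote-labelled libraries (SD, n = 4), and its log2 fold change was -0.34 (SE 0.26). Car5b, a mitochondrial isozyme, was at 1.05 ± 0.585 and 1.23 ± 1.54 TPM (SD, n = 4), with a log2 fold change of 0.28 (SE 0.98). Car4, Car10 and Car15 had 0 fragments in all 8 libraries.

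**Figure D2:**
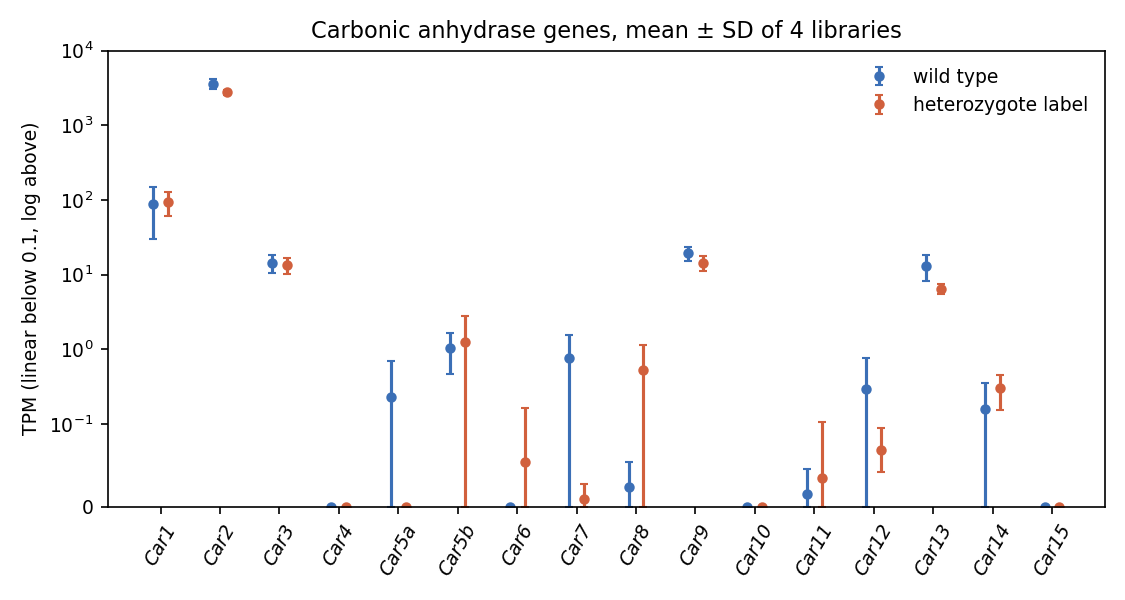
Mean level in TPM of 16 carbonic anhydrase genes, on an axis that is linear below 0.1 TPM and logarithmic above, for wild type (blue) and heterozygote label (orange), with bars for the SD of 4 libraries cut at 0. Car2 stands at 3590 TPM in wild type and 2765 TPM under the heterozygote label, Car1 follows at 89.0 and 93.7 TPM, and Car3, Car9 and Car13 lie between 6.40 and 19.2 TPM.

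Klf1, the zinc-finger factor that drives red cell gene expression, had the most negative fold change of the set. The gene lies on chromosome 8 of GRCm38 at 84901928 to 84905291 (plus strand). Its values were 31.2, 13.9, 3.68 and 28.8 CPM in the wild-type libraries and 14.3, 4.96, 3.11 and 7.78 CPM under the heterozygote label. Both groups spanned a wide range and overlapped, wild-type replicate 3 being lower than 3 of the 4 heterozygote-labelled libraries. The means were 19.4 ± 13.0 and 7.54 ± 4.91 CPM (SD, n = 4), a fold of 0.389 with a 95% interval of 0.141 to 1.07. In edgeR the change was -1.36 on the log2 scale (SE 0.65, adjusted p = 0.850), and the exact two-sided permutation test gave p = 0.229. Within each genotype the Klf1 values of replicates 1 and 4, which carry Xist, were above those of replicates 2 and 3, an order seen in 2.92% of all genes tested and in no other gene of the set, and the part of sex in the Klf1 values was not tested. With a sex term in the fit the log2 fold change of Klf1 was -1.29 (SE 0.44). Its unadjusted p in edgeR was then 0.0174, against 0.0644 in the main fit, and its adjusted p 0.806. The unadjusted p was also under 0.05 with a replicate block, with DESeq2, and without wild-type replicate 3 or heterozygote replicate 1. With the GC and length trend removed the change was -1.07 (unadjusted p = 0.105 in edgeR).

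Rhd and Ermap encode proteins of the red cell surface that carry blood group antigens. Both lie on chromosome 4 of GRCm38, Rhd at 134864536 to 134896172 on the plus strand and Ermap at 119175457 to 119190011 on the minus strand. Rhd, the Rh protein, was at 20.1, 18.0, 8.61 and 32.7 CPM in wild-type and 26.9, 5.82, 13.6 and 9.21 CPM in heterozygote-labelled libraries. The groups overlapped broadly, and the log2 fold change of -0.51 (SE 0.51, adjusted p = 0.904 in edgeR) became -0.16 without wild-type replicate 4 and -1.05 without heterozygote replicate 1. Ermap, the erythroblast membrane-associated protein, was at 9.52, 6.90, 0.335 and 9.64 CPM in wild-type and 5.81, 1.47, 6.49 and 1.23 CPM in heterozygote-labelled libraries. Wild-type replicate 3 was the lowest of all 8 libraries for Ermap, and the change was -0.81 on the log2 scale (SE 0.87, adjusted p = 0.914 in edgeR), with -0.52 without heterozygote replicate 4 and -1.21 without wild-type replicate 3. The exact permutation p was 0.4 for Rhd and 0.743 for Ermap.

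Aqp1, the water channel of the red cell membrane, lies on chromosome 6 of GRCm38 at 55336432 to 55348555 (plus strand). It was at 30.1, 21.4, 15.5 and 28.5 CPM in wild-type and 15.8, 18.7, 10.2 and 6.91 CPM in heterozygote-labelled libraries. Only wild-type replicate 3 fell among the heterozygote-labelled values. Mean levels were 23.9 ± 6.77 and 12.9 ± 5.32 CPM (SD, n = 4), a fold of 0.540 with a 95% interval of 0.313 to 0.932. In edgeR the change was -0.89 on the log2 scale (SE 0.35, adjusted p = 0.850), and the exact permutation p was 0.0857. With the GC and length trend removed the change was -0.63, and its unadjusted p in edgeR was no longer under 0.05, as also when wild-type replicate 1 or 4 or heterozygote replicate 3 or 4 was left out. Endothelial cells also express Aqp1, and the summed endothelial markers were at 38.3 to 61.4 CPM in wild-type and 37.3 to 46.4 CPM in heterozygote-labelled libraries. Most of that sum was Emcn, with means of 35.3 and 28.1 CPM, and Tie1, with means of 11.7 and 11.2 CPM. All 7 markers had a fragment in some library, but Cdh5 did not exceed 0.852 CPM in any. The part of endothelial transcripts in the Aqp1 values was not tested.

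Ank1, the ankyrin that ties the red cell membrane to its spectrin skeleton, was barely detected. The gene, on chromosome 8 of GRCm38 at 22974844 to 23150497 (plus strand), had 15, 9, 0 and 1 fragments in wild-type and 0, 0, 30 and 0 fragments in heterozygote-labelled libraries. A count of 0 allows up to 3 fragments, equal to 0.136 to 0.179 CPM of all counted fragments in these libraries, counting error alone considered. All of the heterozygote-labelled fragments came from replicate 3, and Ank1 was not tested.

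Promoter sequence was drawn on for the genes with the most negative fold changes, because GATA and KLF factors recognise short letters there. As GATA letters, AGATAA and AGATAG as well as TGATAA and TGATAG were searched, and CACCC as KLF letters, all on both strands, in the 250 bases before each RefSeq start of GRCm38. In 32851 such windows over the genome, GATA letters were found in 26.5% and CACCC in 52.0%. RefSeq windows were matched for 6 of the 10 genes, namely Klf1, Aqp1, Blvrb, Tfrc, Ermap and Rhd. The stretches for Klf1 (chr8:84901732-84901927, plus strand), Ermap (chr4:119190012-119190245, minus strand), Rhd (chr4:134864286-134864535, plus strand) and Aqp1 (chr6:55336049-55336298, plus strand) are given 5′ to 3′, with matches in capitals, TTATCA being TGATAA and GGGTG being CACCC on the opposite strand.
Klf1: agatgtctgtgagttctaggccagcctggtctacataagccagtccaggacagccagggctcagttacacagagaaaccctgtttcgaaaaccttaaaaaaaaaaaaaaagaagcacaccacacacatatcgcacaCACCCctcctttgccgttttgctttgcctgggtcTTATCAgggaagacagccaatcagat
Ermap: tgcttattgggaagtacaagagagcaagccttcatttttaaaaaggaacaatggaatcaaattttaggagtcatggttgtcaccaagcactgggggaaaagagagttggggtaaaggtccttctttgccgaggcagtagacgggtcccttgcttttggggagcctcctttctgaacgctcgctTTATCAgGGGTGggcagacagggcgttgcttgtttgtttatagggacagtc
Rhd: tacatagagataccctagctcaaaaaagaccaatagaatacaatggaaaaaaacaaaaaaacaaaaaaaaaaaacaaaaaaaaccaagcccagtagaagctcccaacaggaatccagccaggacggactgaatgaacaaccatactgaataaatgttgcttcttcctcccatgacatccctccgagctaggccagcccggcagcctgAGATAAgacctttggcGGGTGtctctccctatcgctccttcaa
Aqp1: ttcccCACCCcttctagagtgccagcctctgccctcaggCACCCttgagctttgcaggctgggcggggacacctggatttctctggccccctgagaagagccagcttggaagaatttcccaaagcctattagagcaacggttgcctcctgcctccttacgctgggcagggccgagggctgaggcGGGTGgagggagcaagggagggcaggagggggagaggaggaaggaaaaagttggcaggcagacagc
Klf1 held TGATAA 80 bases and CACCC 114 bases before its RefSeq start. The RefSeq starts of Klf1 (84901982) and Ermap (119189995) lie inside the gene bounds given above, and their printed stretches stop at those bounds. Distances are counted from the RefSeq starts, so for these 2 genes they exceed the distances to the end of the printed letters. Ermap held TGATAA at 67 and CACCC at 60 bases, and Rhd held AGATAA at 43 and CACCC at 27 bases before the start. Aqp1 held 3 CACCC matches and none of the GATA letters in this window. GATA and CACCC matches did not overlap each other. CACCC letters were present in all 6 of the genes with a window, and GATA letters in Klf1, Ermap, Rhd and 1 of 2 windows of Blvrb. A match describes letters and shows no binding.

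Iron and haem handling gave mixed directions. Blvrb, a reductase of biliverdin and flavins that is abundant in red cells, lies on chromosome 7 of GRCm38 at 27447978 to 27466144 (plus strand). It was at 41.0, 37.3, 42.4 and 50.2 CPM in wild-type and 24.6, 29.1, 41.9 and 30.7 CPM in heterozygote-labelled libraries. Heterozygote replicate 3 lay inside the wild-type range and the other 3 lay below it. Blvrb had a log2 fold change of -0.44 (SE 0.20, adjusted p = 0.850 in edgeR), a fold of 0.739 with a 95% interval of 0.541 to 1.01 and an exact permutation p of 0.0857. Once each library's trend with GC and length was taken out, it was -0.23.

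Slc25a37, mitoferrin 1, which brings iron into mitochondria for haem synthesis, went the other way. The gene lies on chromosome 14 of GRCm38 at 69241848 to 69285112 (minus strand). It was at 8.77, 6.26, 9.28 and 3.17 CPM in wild-type and 22.5, 9.43, 16.96 and 7.16 CPM in heterozygote-labelled libraries. Under the heterozygote label replicates 1, 2 and 3 exceeded every wild-type value and replicate 4 lay inside the wild-type range. Means were 6.87 ± 2.80 and 14.0 ± 7.04 CPM (SD, n = 4), a fold of 2.04 with a 95% interval of 1.01 to 4.13. In edgeR this was 1.03 on the log2 scale (SE 0.46, adjusted p = 0.850), and the exact permutation p was 0.114. The unadjusted p in edgeR was no longer under 0.05 when scaled by library size alone or with a sex term. Nor was it when wild-type replicate 1, 2 or 4 or heterozygote replicate 1 or 3 was left out. Without heterozygote replicate 1 the log2 fold change was 0.71.

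Tfrc, the transferrin receptor that takes up iron in dividing and erythroid cells, lies on chromosome 16 of GRCm38 at 32608920 to 32632794 (plus strand). Its values were 20.1, 9.08, 23.0 and 36.5 CPM in wild-type and 17.7, 23.0, 9.93 and 25.3 CPM in heterozygote-labelled libraries. The heterozygote-labelled range lay within the wild-type range. Tfrc had a log2 fold change of -0.23 (SE 0.42, adjusted p = 0.947 in edgeR), and it was 0.12 without wild-type replicate 4.

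**Figure D3:**
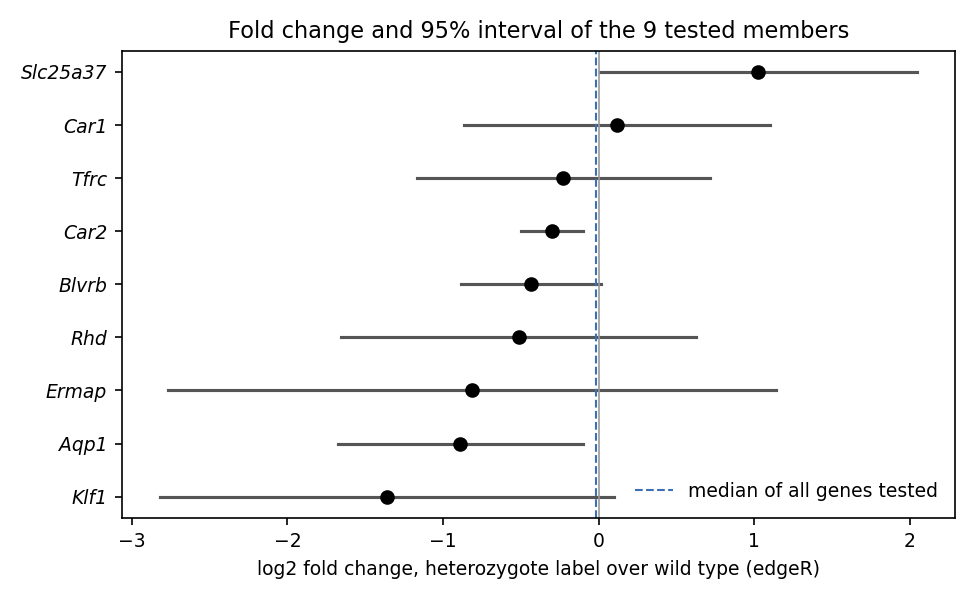
Log2 fold change of the heterozygote label over wild type (horizontal axis) for the 9 tested genes, as points with 95% intervals from the edgeR fit over 8 libraries, with a dashed line at the median of all genes tested. Car2 has the narrowest interval, -0.50 to -0.10, the intervals of Car2 and Aqp1 lie below 0, that of Slc25a37 lies just above 0, and the other 6 include 0.

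Compared per length, the wild-type levels ran from Car2 through Car1 (89.0 ± 59.5 TPM), Blvrb (40.5 ± 3.89), Klf1 (34.2 ± 22.8), Rhd (33.1 ± 15.9), Aqp1 (24.2 ± 7.61), Tfrc (9.29 ± 4.37), Ermap (3.38 ± 2.22) and Slc25a37 (3.02 ± 1.21) to Ank1 (0.0574 ± 0.0633 TPM, SD, n = 4 each). Car2 was separated from Car1 in all libraries, and Slc25a37 from Ank1 in the wild-type libraries. The wild-type ranges of all other neighbours in that order overlapped. In heterozygote-labelled libraries Slc25a37 was at 5.90 ± 3.09 TPM and Ermap at 1.79 ± 1.33 TPM, the reverse of their wild-type order, with ranges that overlapped.

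The 10 genes did not rise and fall as a single block across libraries. Of 45 pairs, 31 had a positive Pearson r of log2 CPM over the 8 libraries, and the median r was 0.20. The highest was Ermap with Rhd, at r = 0.80 and Spearman rho = 0.79, with exact permutation p = 0.0165 and 0.0279 (adjusted over the 45 pairs, 0.394 and 0.331). Without the 2 libraries farthest from the Ermap median r was 0.88. Klf1 with Rhd followed at r = 0.77 and rho = 0.76, with exact permutation p = 0.0314 and 0.0368 (adjusted 0.394 and 0.331), and r was 0.92 without the 2 libraries farthest from the Klf1 median. With genotype means removed, these became 0.81 for Ermap with Rhd and 0.73 for Klf1 with Rhd, and with the means of libraries with and without Xist removed, 0.78 and 0.63. None of the 45 pairs passed at an adjusted p under 0.05, the smallest exact permutation p after adjustment being 0.394 for r and 0.331 for rho, and 3 had an unadjusted p under 0.05 for r.

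Klf1 had r = 0.68 with Aqp1 (rho 0.76), 0.67 with Ermap (rho 0.67) and 0.62 with Car2 (rho 0.55), and these became 0.87, 0.64 and 0.84 with the means of libraries with and without Xist removed. The r of Car2 was 0.25 with Rhd, 0.21 with Ermap and -0.16 with its neighbour Car1. The pair of Car2 with Slc25a37 was the third under 0.05 unadjusted, at r = -0.71 and rho = -0.74, with exact permutation p = 0.0451 and 0.0458 (adjusted 0.394 and 0.344), and -0.65 without the 2 libraries farthest from the Car2 median. With genotype means removed that r was -0.45. Car2 with Aqp1 had r = 0.69 over all libraries and 0.24 with genotype means removed.

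**Figure D4:**
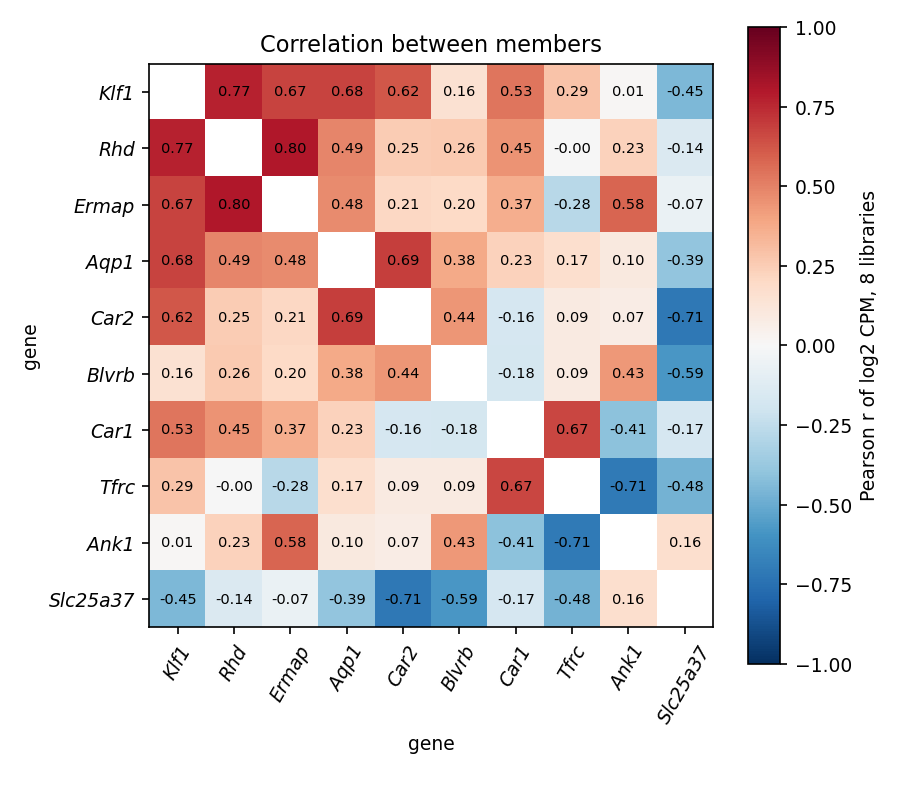
Pearson r of log2 CPM over 8 libraries for every pair of the 10 genes, on a colour scale from -1 (blue) to 1 (red), with r printed in each cell. Klf1, Rhd and Ermap share r of 0.67 to 0.80 with each other, and Slc25a37 has a negative r with all genes but Ank1.

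The genes whose levels tracked Car2 most closely over the 8 libraries were Ubl4a, Pemt and Gpr146, out of 11034 genes compared. Ubl4a, which helps insert tail-anchored proteins into membranes, had r = 0.982, Pemt, a phosphatidylethanolamine methyltransferase, 0.966, and Gpr146, an orphan receptor, 0.965. Ubl4a was at 122 ± 8.63 CPM in wild-type and 101 ± 8.06 CPM in heterozygote-labelled libraries (SD, n = 4), a log2 fold change of -0.27. Pemt and Gpr146 were lower in level, with log2 fold changes of -1.00 and -1.30, and all 3 had an adjusted p of 0.850 in edgeR. An r of at least 0.9 was reached by 57 genes, and all these values include the shared difference between the groups.

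Other genes of the erythroid pathways were described in 8 lists, leaving out the 10 genes. In none of the lists did a gene pass the threshold with edgeR or DESeq2. In a list of 22 transcription factors and cofactors drawn up for the erythroid programme, not all of them particular to it, 11 were lower and 11 higher. Their median log2 fold change of -0.0035 took either sign among the alternatives. Foxo3, a stress-responsive factor needed in erythroid maturation, was at 75.9 ± 14.3 CPM in wild-type and 108 ± 23.0 CPM in heterozygote-labelled libraries (SD, n = 4; log2 fold change 0.52, SE 0.19). Bach1, a haem-sensing repressor, had 0.64 (SE 0.27), Gfi1b, a repressor of erythroid and megakaryocytic cells, -0.65 (SE 0.29), and Lyl1, a relative of Tal1, -0.67 (SE 0.31). Gata1, chosen after its values were seen because it succeeds Gata2 in red cell formation, was at 35.9 ± 9.88 and 19.4 ± 11.8 CPM, a log2 fold change of -0.89 (SE 0.43, adjusted p = 0.850 in edgeR).

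Signalling from the erythropoietin receptor showed 9 of 14 tested genes lower and 5 higher, with a median of -0.23 that became 0.02 with the GC and length trend removed, 0.01 without wild-type replicate 2, -0.04 without heterozygote replicate 2, -0.09 without heterozygote replicate 4 and -0.13 without heterozygote replicate 3. Bcl2l1, the survival gene that encodes BCL-XL, was at 14.9 ± 9.93 CPM in wild-type and 4.77 ± 2.65 CPM in heterozygote-labelled libraries (SD, n = 4), a log2 fold change of -1.64 (SE 0.60). Epor, the receptor itself, had -0.75 (SE 0.39), the kinase Lyn -0.40 (SE 0.23) and the kinase Pim1 0.34 (SE 0.25). In haem synthesis 6 of 12 were lower and 6 higher, with a median of -0.05 that also took either sign among the alternatives. Ppox, the enzyme that makes protoporphyrin, was at 8.56 ± 3.73 and 5.26 ± 1.72 CPM (SD, n = 4; log2 fold change -0.70, SE 0.42). Abcb10, a mitochondrial transporter, had 0.57 (SE 0.36) and Clpx, which activates the first enzyme of the pathway, 0.21 (SE 0.13).

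Haem breakdown and export had 2 of 6 tested genes lower and 4 higher, with a median of 0.10 that was 0.01 without wild-type replicate 1, 0.05 without wild-type replicate 4, 0.03 without heterozygote replicate 3, 0.07 without heterozygote replicate 2 and 0.16 without wild-type replicate 3. Blvra, the other biliverdin reductase, had a log2 fold change of 0.28 (SE 0.15), opposite in sign to Blvrb, and Abcg2, an exporter of porphyrins, 0.15 (SE 0.09). Slc48a1, a haem transporter, had -0.21 (SE 0.23) and the haem exporter Flvcr1 0.19 (SE 0.33). Iron uptake and storage had 12 of 18 lower and 6 higher, with a median of -0.11 that was -0.03 without wild-type replicate 2 and -0.05 without wild-type replicate 1. Ftl1, the ferritin light chain, was at 827 ± 124 and 691 ± 40.6 CPM (SD, n = 4; log2 fold change -0.26, SE 0.12). Tfr2, the second transferrin receptor, had -0.61 (SE 0.30), Aco1, an iron-responsive RNA-binding protein, -0.77 (SE 0.44), and Steap3, a ferric reductase, -0.70 (SE 0.51).

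Red cell membrane genes were lower in 11 of 13 tested and higher in 2, with a median of -0.27 that moved to -0.12 without wild-type replicate 1, and to -0.17 when heterozygote replicate 4 was left out. Slc14a1, the urea transporter of red cells, was at 141 ± 23.6 CPM in wild-type and 98.3 ± 14.5 CPM in heterozygote-labelled libraries (SD, n = 4). Its groups did not overlap, the heterozygote label being lower, as held for 1.82% of all genes tested. Its log2 fold change was -0.52 (SE 0.16, adjusted p = 0.850 in edgeR). Add1, a subunit of adducin in the membrane skeleton, had -0.89 (SE 0.32), Kcnn4, the potassium channel of red cells, -0.67 (SE 0.30), and Cd47, a surface signal against phagocytosis, 0.24 (SE 0.12). Of the globins 4 were tested and all 4 were lower, with a median of -0.93 that was -0.44 without wild-type replicate 4. Their levels were low, the highest being Hbb-bt at 15.4 ± 6.83 and 13.5 ± 5.58 CPM (SD, n = 4; log2 fold change -0.19, SE 0.40). Hbb-bs, Hba-a1 and Hba-a2 had -0.97, -1.05 and -0.89 with SE of 0.59 to 0.81. Near-identical globin copies share reads, so the counts of single copies are uncertain.

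**Figure D5:**
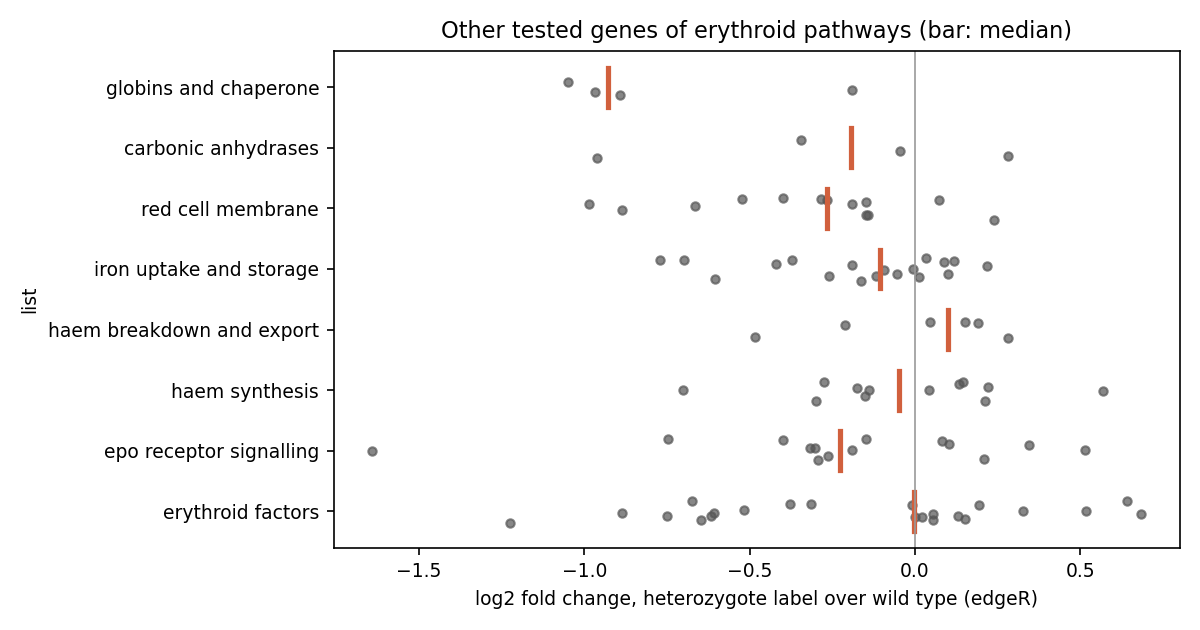
Log2 fold change of the heterozygote label over wild type (horizontal axis) for each tested gene of 8 lists, with the 10 genes of interest left out and a bar at each list's median; vertical scatter within a list carries no meaning. Erythroid factors and haem synthesis spread to both sides of 0 with medians of -0.0035 and -0.05, while 11 of 13 red cell membrane genes and 4 of 4 globins lie below 0.

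Markers of other cells were measured beside these genes. Mature red cell markers summed to 115 to 200 CPM in wild-type and 127 to 146 CPM in heterozygote-labelled libraries, with 6 of 7 tested lower and a median log2 fold change of -0.89. Most of that sum was Hemgn, whose means were 112 and 108 CPM. Megakaryocyte markers summed to 730 to 1015 and 565 to 843 CPM, and 9 of 10 tested were lower with a median of -0.37. Pf4 made up most of the sum, with means of 653 and 560 CPM. All 11 had a fragment in some library, but Gp6 only in wild-type replicate 3. Megakaryocytes and red cells share several transcripts, and the part of megakaryocyte transcripts in the values of the 10 genes was not tested. Stem cell markers had 6 of 12 lower and a median of -0.01. Granulocyte and monocyte markers summed to 553 to 685 and 529 to 684 CPM, with 5 of 12 lower and a median of 0.10. Mast cell and basophil markers summed to 17.9 to 42.0 and 16.8 to 26.6 CPM, with Cma1 and Tpsb2 at 0 in all libraries, and 2 of 3 tested were lower with a median of -0.22. Lymphoid markers summed to 344 to 561 and 415 to 636 CPM, nearly all from Nkg7 and Cd79b, with 1 of 2 lower and a median of 0.14. The defining genes Pax5, Cd3e, Cd3g, Il7r and Rag1 were at 0 in all libraries. Of the endothelial markers 2 of 3 tested were lower with a median of -0.07, and the 1 osteoclast marker tested, Acp5, had -0.30.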

How the data were processed

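Total RNA of 8 samples was sequenced, after removal of ribosomal RNA, from directional libraries as paired reads of 75 bases, per the labels' protocols. Reads were handled with Trim Galore, cutadapt and STAR 2.5.1b on GRCm38, per the submitters' processing notes. The deposited values are raw fragment counts per gene, made by the authors with featureCounts in reverse-stranded mode on GENCODE M17 exons, per the file headers, which name version 1.6.2 where the processing notes name 1.5.1. Fragments shared between genes or places were left out, which lowers near-identical copies. A later GENCODE release than the one used for counting, also on GRCm38, gave symbols for 53620 of 53715 identifiers.

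Groups were taken from the library descriptions. edgeR 4.0.16 in R 4.3.3 tested 13992 genes kept by filterByExpr, with TMM factors of 0.946 to 1.08, genotype alone in a robust quasi-likelihood model, and Benjamini-Hochberg adjustment over all genes tested (threshold 0.05). Folds of single genes were also given an exact permutation test, correlations used log2 CPM with a prior count of 2, and TPM was computed from the counts and the deposited exon lengths. All 8 libraries were distinct (chi-square over degrees of freedom at least 35.4 for every pair, lower where 2 libraries were more alike). Wild-type replicate 3 had 57.7 to 96.3 with the other wild-type libraries and 36.3 to 47.8 with the heterozygote-labelled libraries. It was thus nearer to every heterozygote-labelled library than to any wild-type one. For wild-type replicate 4 these ranges were 57.7 to 62.7 and 37.5 to 61.1. DESeq2 1.42.0 and limma 3.58.1, other scalings and filters, a sex term, a replicate block, removal of GC and length trends and each library left out were alternatives. The procedure was tested on simulated data.

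The 10 genes and all lists were chosen with earlier results of these data known. The genes named were Gata2, the 10, up to 4 tested genes per list by smallest unadjusted p, the 3 genes most correlated with Car2 (mean of at least 1 CPM, predicted models left out) and markers of other cells. Some of these are not reported here. Promoters are RefSeq sequence of GRCm38.p6. Intervals of folds come from the edgeR fit and include the spread between libraries. Floors of 3 counts cover counting error only, as reads carried no molecular identifiers.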

Additional observations from a re-analysis of the deposited data

How the results depend on the processing

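In 19 alternatives, 0 of the 9 tested genes passed the threshold, and Ank1 was not assessed in any of them. The log2 fold changes of Car2, Klf1, Aqp1, Blvrb, Ermap, Rhd and Slc25a37 kept their sign in all 19. Car2 ranged from -0.37 to -0.23, with adjusted p from 0.112 to 1.00. Over all genes, DESeq2 called 29 on the genes tested with edgeR and 79 on all genes with a count, an alternative chosen after seeing the data, against 0 with edgeR, and the cause was not tested. Leaving out 1 library moved Car1 between -0.0929 and 0.71, its sign turning without wild-type replicate 2 (-0.0893), wild-type replicate 3 (-0.0929) or heterozygote replicate 1 (-0.08), and moved Tfrc between -0.47 and 0.12, positive only without wild-type replicate 4. Of the 9 tested, 6 to 8 were negative, and their median ran from -0.50 to -0.28. Without wild-type replicate 3, 12.5% of genes had an unadjusted p under 0.05 in edgeR, against 5.66% with all libraries, and limma voom gave 10.4%. Same-numbered libraries deviated together with r of 0.01 to 0.10, and differently numbered ones with r of -0.08 to 0.05. Same-numbered libraries also matched in carrying Xist or Y-linked counts. Pairing of the mice by number was not settled by this, and the main fit took none. With a replicate block 0 genes passed, the median of the 9 was -0.46 and Car2 was at -0.30 (adjusted p = 0.723 in edgeR). Klf1 was then at -1.20 (SE 0.35, against 0.65 in the main fit) and Slc25a37 at 1.00 (SE 0.29, against 0.46). Their unadjusted p in edgeR was 0.0123 and 0.0122, and their adjusted p was 0.723. The SE of Ermap rose from 0.87 to 1.30. Depth limits Ank1 most, with 0 to 30 fragments per library.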
